A study of Mus musculus with 6 samples.

Results

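Ligands of the B7 family and related immune checkpoint genes were described in 2 mouse malignant mesothelioma cell lines, AB1 and AC29. The set held 10 genes, chosen by name from the list Cd274, Pdcd1lg2, Cd276, Vtcn1, Cd80, Cd86, Cd200, Cd47, Pvr and Nectin2, out of 18193 genes on the array. All 10 were measured, by 25 probe sets that carried 1 gene symbol each, and a gene was read from its brightest probe set over the 6 arrays. AB1 comes from the BALB/c strain and was at passage 40, and AC29 comes from the CBA strain and was at passage 60; for both lines the labels give female mice, 6 to 8 weeks old. Background knowledge places both lines among those raised in mice with asbestos, the mineral fibre behind most cases of this cancer of the pleura and peritoneum. Each line was grown in 3 flasks, with no drug or cytokine listed, to 80% confluency, and total RNA of each flask was put on 1 Affymetrix 3′ expression array. The flasks are repeats of 1 line, so the p-values measure the spread between flasks, and line, strain, passage and any processing batch cannot be told apart.

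Checkpoint ligands are surface proteins through which a cell speaks to passing T cells, natural killer cells and macrophages. PD-L1 and PD-L2 (Cd274 and Pdcd1lg2) bind PD-1 and restrain T cells, and CD80 and CD86 bind CD28, which activates T cells, or CTLA-4, which restrains them. The nectin family ligands PVR and Nectin-2 bind the activating receptor CD226 and the inhibitory receptor TIGIT, while CD47 binds SIRPα on macrophages and holds back phagocytosis. PD-L1 is known to rise when tumour cells meet interferon-gamma, and the labels list no cytokine for these cultures.

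The deposited values are log2 probe set values, with array medians between 5.76 and 5.81. Within a line, arrays correlated across genes at 0.995 or above, and between the lines at 0.937 to 0.938. AC29 replicate 14 stood apart on the second principal component, which held 2.86% of the variance, against 93.1% for the first, which separated the lines. The values without it are given beside the ligands that passed. A floor of 6.07 was set at the 95th percentile of 86 probe sets for olfactory, vomeronasal and taste receptors, which these cells are not expected to express, and 64.0% of all genes exceeded it on at least 1 array. All 12 mesothelial markers were above the floor on every AC29 array. In AB1, 4 of them (Msln, Krt18, Calb2 and Pdpn) were above it on all 3 arrays, while Krt8, Upk3b and Wt1 were under it. Of the 12, 10 passed the call rule given below as higher in AC29, as did 5.12% of all genes. The mean level of the list was 6.29 to 6.31 over the AB1 arrays and 11.0 to 11.1 over the AC29 arrays. The fibroblast genes Col1a1 and Dcn, 2 of 4, were also higher in AC29, and of 4 endothelial markers Kdr alone exceeded the floor. The part of these shifts in the ligand values was not tested.

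Of the 10 ligands, 5 exceeded the floor on at least 1 array: Cd276, Cd80, Cd47, Pvr and Nectin2. The other 5, Cd274, Pdcd1lg2, Vtcn1, Cd86 and Cd200, were at or under it on all 6 arrays. Nectin2 was higher in AC29 and Cd80 was higher in AB1. A gene was called when limma's adjusted p was below 0.05 and the lines differed 2-fold or more, which held for these 2 of the 10 ligands and for 10.9% of all genes (5.12% higher in AC29 and 5.82% higher in AB1). When limma's treat asked for evidence of more than a 2-fold change, the same 2 ligands and 6.80% of all genes passed. For Cd80 both passes used AC29 values that were all under the floor, against which the bound was at least 2.22-fold. With a minimum of 1.5-fold, 5 of 10 passed, against 21.9% of all genes. These were Nectin2, Cd80, Cd47, Pvr and Cd274, of which Cd274 was under the floor on all 6 arrays, where no fold is given. At an adjusted p under 0.05 alone, 6 of 10 passed, against 39.1%: the same 5 with Cd276. For the same 6 ligands every array of one line was above every array of the other, as for 50.1% of all genes. A lower value in a culture can come from fewer cells with the transcript or from less of it per cell, and the arrays cannot tell these apart. The median difference of the 10 ligands was -0.03 on the log2 scale (AC29 minus AB1), and the median size of a difference was 0.48, against 0.20 for all genes.

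**Figure D1:**
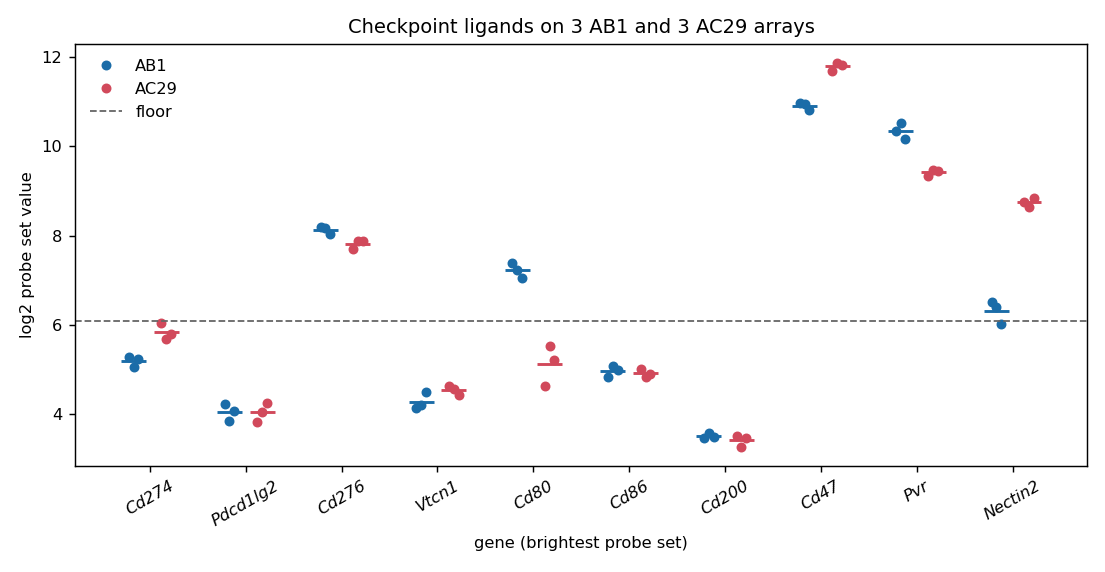
Log2 probe set value of each ligand (vertical axis) on the 3 AB1 arrays (blue) and the 3 AC29 arrays (red), by the brightest probe set of each gene; short lines are means and the dashed line is the floor of 6.07. Nectin2 and Cd80 differ most between the lines, in opposite directions, and 5 of the 10 genes stay at or under the floor on all arrays.

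The inhibitory B7 ligands read low, with the exception of Cd276. Cd274, which encodes PD-L1, read 5.27, 5.05 and 5.22 on the AB1 arrays and 6.03, 5.67 and 5.79 on the AC29 arrays. Every AC29 array was above every AB1 array, yet none of the 6 exceeded the floor, so that no fold is given. The difference was 0.65 on the log2 scale (SE 0.113; limma, adjusted p = 0.00135), with a 95% interval of 0.39 to 0.90 that lay under the 2-fold minimum. With a floor set at their 90th percentile, 5.68, replicates 13 and 15 of AC29 were above it.

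Pdcd1lg2, which encodes PD-L2 and lies next to Cd274 among the protein-coding genes of the RefSeq map, read 4.22, 3.84 and 4.07 in AB1 and 3.81, 4.03 and 4.25 in AC29. The lines overlapped, and the interval of the difference ran from -0.32 to 0.29 (limma, adjusted p = 0.953). Vtcn1, which encodes the inhibitory ligand B7-H4, read between 4.12 and 4.49 in AB1 and between 4.42 and 4.62 in AC29. Its difference of 0.27 did not pass (limma, adjusted p = 0.0988). Without AB1 replicate 6 the difference was 0.37 and the adjusted p = 0.0263. Neither Pdcd1lg2 nor Vtcn1 came near the floor on any array.

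Cd276, which encodes B7-H3, a ligand found on many solid tumours, was above the floor on all 6 arrays. It read 8.20, 8.16 and 8.04 in AB1 and 7.70, 7.87 and 7.87 in AC29. All AB1 arrays were higher, by a mean of 1.25-fold (difference -0.32, SE 0.0907; limma, adjusted p = 0.0196). The 95% interval of -0.53 to -0.11 did not reach a 2-fold difference. The adjusted p was 0.0819 without AB1 replicate 4, 0.0628 without AB1 replicate 5 and 0.0714 without AC29 replicate 13, each above 0.05.

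Cd274 is known to be driven by interferon through its promoter, so the promoters of the ligands were read. RefSeq promoter windows (GRCm38.p6) were held for 8 of the 10 genes, and none for Cd86 and Pvr. The 250 bases before each start were searched on both strands for the interferon response letters GAAANNGAA and for TTCNNNGAA, the gamma-activated site, which reads alike on both strands. Of 32851 windows of that length over all genes, 7.13% held the first and 7.02% the second. Among the 9 windows of the 8 ligands, the Cd274 window held the first, and no window held the second. Whether the match acts on Cd274 in these lines was not tested. The window of Cd274 lies at chr19:29367188-29367437 on the plus strand and is shown with the match in capitals, as TTCGGTTTC on this strand.

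Cd274: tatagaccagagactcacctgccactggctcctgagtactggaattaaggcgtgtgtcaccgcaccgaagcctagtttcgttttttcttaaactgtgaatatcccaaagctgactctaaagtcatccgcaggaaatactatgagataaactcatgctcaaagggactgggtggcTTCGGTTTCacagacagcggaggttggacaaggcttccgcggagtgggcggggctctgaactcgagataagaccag

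The costimulatory ligands differed from each other. Cd80 read 7.39, 7.22 and 7.06 on the AB1 arrays and 4.61, 5.52 and 5.21 on the AC29 arrays. All AB1 arrays were above the floor and all AC29 arrays under it, without overlap. The difference was -2.11 on the log2 scale (SE 0.204; limma, adjusted p = 3.14e-05), and against the floor Cd80 was at least 2.22-fold higher in AB1. With a stricter floor at the 99th percentile, 7.23, only 1 of the 3 AB1 arrays exceeded it and no bound on the fold remains. Without AC29 replicate 14 it was -2.31. The AC29 spread (SD 0.46, n = 3) was wider than that of AB1 (SD 0.17), and lay wholly under the floor.

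Of the 4 probe sets for Cd80, 3 were higher in AB1 past the rule when adjusted over all probe sets. The second brightest read 6.81, 7.22 and 6.77 in AB1, and its difference was -2.68 (adjusted p = 3.95e-07), at least 1.81-fold. The third differed by -1.11 with all arrays under the floor. The fourth, also under the floor on all 6 arrays, ran the other way at 0.23 and did not pass (adjusted p = 0.0807). Both probe sets with arrays above the floor exceeded it in AB1 alone, so their shared direction follows from that filter and adds no support. On the mean of the 4 probe sets, all of them under the floor in AC29, the Cd80 difference was -1.42. It passed the rule, but it is made of the same values and adds no support either.

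Cd86, the other ligand of CD28 and CTLA-4, was at or under the floor in both lines. It read 4.81, 5.06 and 4.98 in AB1 and 5.00, 4.83 and 4.90 in AC29, and the lines overlapped. The interval of its difference ran from -0.26 to 0.17 (limma, adjusted p = 0.777), and its other probe set differed by 0.06.

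Cd80 and Cd86 are best known from antigen-presenting cells, so markers of blood cells were read beside them. Of 9 myeloid markers, 5 exceeded the floor on at least 1 array, and Cd14, a receptor for bacterial lipopolysaccharide, was the one that passed, higher in AB1 (9.02 ± 0.08 against 7.26 ± 0.07, SD, n = 3). Cd68, a lysosomal protein of macrophages, read 6.68 in AB1 and 6.03 in AC29, where it was under the floor (difference -0.65). Lyz2 went the other way, under the floor in AB1 (5.83) and above it in AC29 (6.31), with a difference of 0.48. Neither Cd68 nor Lyz2 passed the rule, and with 1 line under the floor their folds are lower bounds. Csf1r read 6.56 in AB1 and 6.66 in AC29, and Fcer1g 5.94 and 5.93. The mean of the myeloid list ran from 5.74 to 5.82 over the AB1 arrays and from 5.51 to 5.62 over the AC29 arrays. The median difference over the list was -0.008 (AC29 minus AB1). The macrophage markers Adgre1 and Itgam, the dendritic cell marker Itgax and the pan-leukocyte gene Ptprc were under the floor on all arrays, Ptprc at 3.72 and 3.64. Of 3 B cell markers none exceeded the floor. Of 8 T cell markers, Cd3e, Cd4, Cd8a and Zap70 read above it in both lines, Cd3d, Cd3g, Cd2 and Ptprc did not, and none of the 8 passed the rule. What part other cells had in the Cd80 value was not tested.

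The Cd80 window lies at chr16:38458683-38458932 on the plus strand and is shown because Cd80 passed the rule; neither motif was found in it.

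Cd80: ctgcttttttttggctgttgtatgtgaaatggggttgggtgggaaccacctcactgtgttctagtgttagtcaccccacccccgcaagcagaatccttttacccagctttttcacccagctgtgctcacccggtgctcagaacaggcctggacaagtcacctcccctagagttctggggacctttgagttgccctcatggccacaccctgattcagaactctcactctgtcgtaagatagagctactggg

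Among the ligands that mark a cell as self, Cd47 read high in both lines and Cd200 did not exceed the floor. Cd47 read 10.97, 10.95 and 10.82 in AB1 and 11.69, 11.87 and 11.83 in AC29. All AC29 arrays were higher, by 1.85-fold (difference 0.88, SE 0.0906; limma, adjusted p = 4.61e-05). The 95% interval of 0.68 to 1.09 included the 2-fold minimum, and the rule was not passed. Of its 5 probe sets, 3 were above the floor, and all 3 were higher in AC29 by 0.62 to 0.88. Cd200, which encodes the OX-2 glycoprotein that quiets myeloid cells, read between 3.46 and 3.57 in AB1 and between 3.26 and 3.49 in AC29. The lines overlapped (difference -0.10, interval -0.31 to 0.11; limma, adjusted p = 0.480).

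The ligands of the nectin family differed in opposite directions. Nectin2 read 6.51, 6.39 and 6.02 in AB1 and 8.76, 8.64 and 8.83 in AC29. The AC29 arrays lay far above those of AB1, of which 2 were just above the floor and replicate 6 just under it. The difference was 2.44 on the log2 scale (SE 0.129; limma, adjusted p = 5.52e-07), or 5.41-fold with an AB1 mean near the floor. Against the floor at the 99th percentile, which no AB1 array exceeded, it is a bound of at least 2.86-fold. It was 2.29 to 2.54 when any 1 array was left out, and 2.49 without AC29 replicate 14. The other Nectin2 probe set differed by 2.61 (adjusted p = 7.57e-07), and its AB1 arrays straddled the floor in the same way.

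Pvr, which encodes the poliovirus receptor relative CD155, read 10.34, 10.52 and 10.16 in AB1 and 9.33, 9.47 and 9.45 in AC29. All AB1 arrays were higher, by 1.90-fold (difference -0.92, SE 0.107; limma, adjusted p = 0.000104), which fell short of the 2-fold minimum. Without AB1 replicate 6 the difference was -1.01 and Pvr passed the rule, which makes 3 of 10 ligands. Pvr had 7 probe sets, of which 6 were above the floor, and all 6 were higher in AB1, by 0.30 to 1.06. One of the 6 passed the rule at -1.06 (adjusted p = 2.30e-05). The smallest difference above the floor, -0.30, came from a probe set that Affymetrix marks as shared between transcripts, a mark that the brightest one carries too. In older mouse nomenclature Pvr was also a name of Nectin2; here both genes were matched by their Entrez identifiers.

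**Figure D2:**
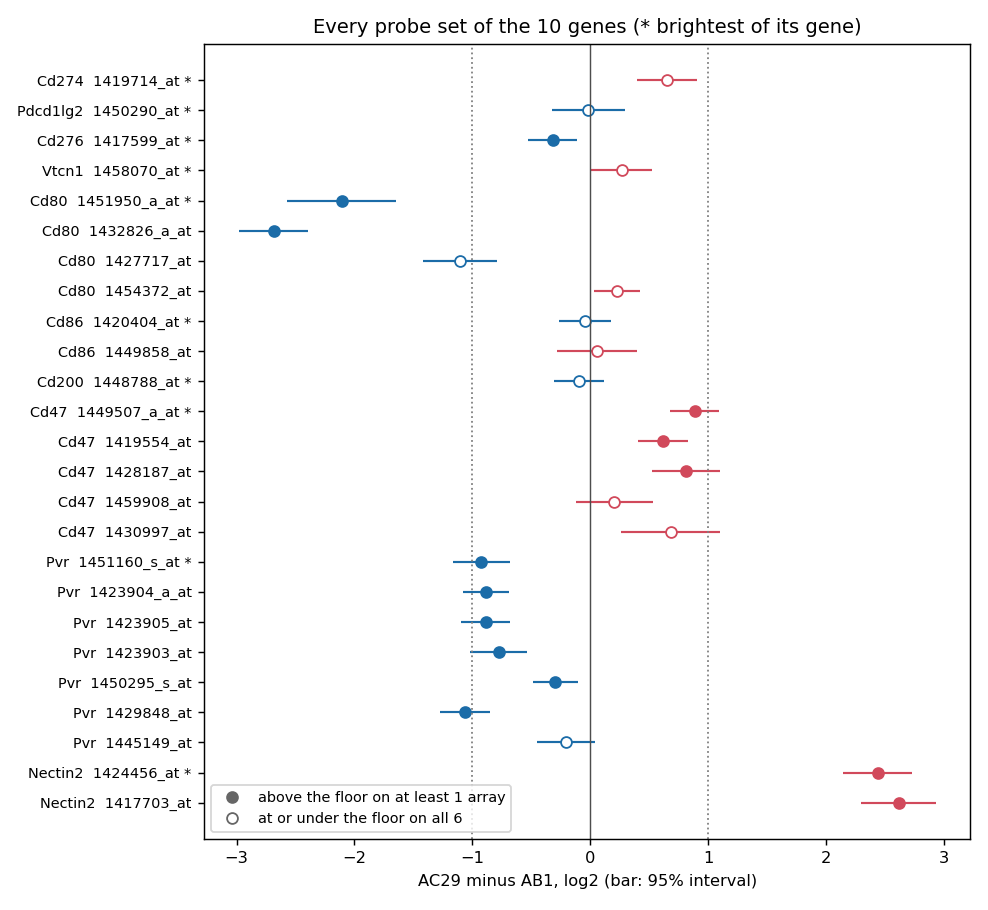
Difference AC29 minus AB1 on the log2 scale (horizontal axis) for all 25 probe sets of the 10 genes, with 95% intervals; filled points were above the floor on at least 1 array, and dotted lines mark a 2-fold difference. The 6 filled points of Pvr and the 2 of Cd80 lie on the AB1 side, and the 3 of Cd47 and the 2 of Nectin2 on the AC29 side. Those of Cd80 were above the floor in AB1 alone, so their side follows from the filter.

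Since Nectin2 and Pvr share the receptors TIGIT and CD226, the difference between them was read on each array. Nectin2 minus Pvr was -3.84, -4.13 and -4.14 in AB1 and -0.56, -0.84 and -0.62 in AC29. The probe sets bind with different strength, so these values show unequal change and not which transcript was more abundant. The means were -4.04 ± 0.17 and -0.67 ± 0.14 (SD, n = 3), and they differed by 3.36. No test is given, since lines that do not overlap for either gene, in opposite directions, cannot overlap in this value. Over the 12 pairs of probe sets above the floor, the value ran from 2.73 to 3.68.

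Nectin2 and Pvr lie near each other on the RefSeq map, with 6 protein-coding genes between them, of which 4 were measured. These neighbours were read after the values of the ligands had been seen. Bcl3, an inhibitor-of-kappa-B family protein that works with NF-κB in the nucleus, read 5.77, 5.68 and 5.84 in AB1, under the floor, and 8.15, 8.30 and 8.36 in AC29. It was at least 4.58-fold higher in AC29 (difference 2.51; limma, adjusted p = 4.49e-08). Bcam, a laminin receptor of the immunoglobulin superfamily, was 2.34-fold higher in AC29 (7.74 ± 0.10 against 6.51 ± 0.18, SD, n = 3; adjusted p = 1.93e-05). Cblc, a ubiquitin ligase, and Gm19345 differed by -0.17 and -0.11 and did not pass. Of these 4 genes, 2 were thus called higher in AC29 and none in AB1, where 5.12% of all genes were called higher in AC29. Between Cd86 and Cd80, 20 genes were measured, with 0 called higher in AC29 and 1 in AB1, and between Cd200 and Cd47, 18 were measured, with 2 and 1.

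**Figure D3:**
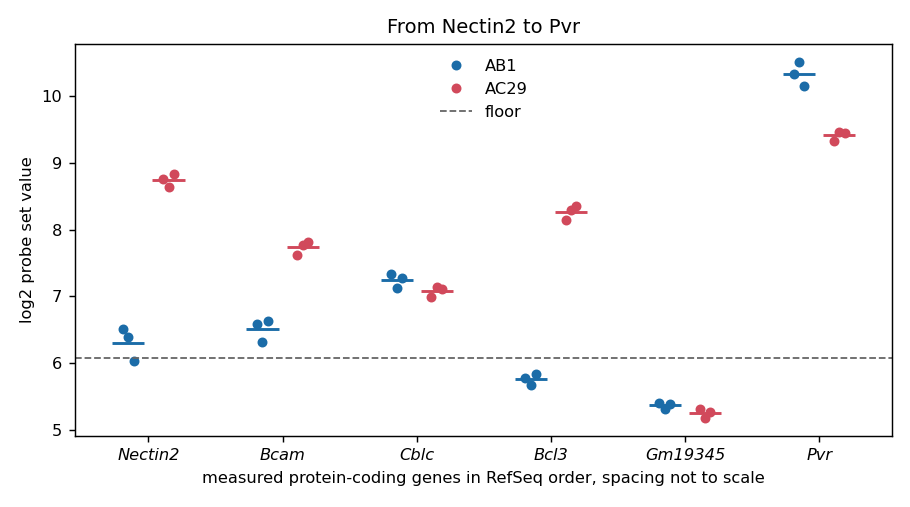
Log2 probe set values (vertical axis) of Nectin2, Pvr and the 4 measured protein-coding genes between them, in RefSeq order and not to scale; points are the 3 arrays of each line, short lines are means and the dashed line is the floor. Nectin2, Bcam and Bcl3 read higher in AC29 and Pvr higher in AB1.

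The Nectin2 window lies at chr7:19749574-19749823 on the minus strand and is shown because Nectin2 had the widest difference among the ligands by its brightest probe set; neither motif was found in it.

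Nectin2: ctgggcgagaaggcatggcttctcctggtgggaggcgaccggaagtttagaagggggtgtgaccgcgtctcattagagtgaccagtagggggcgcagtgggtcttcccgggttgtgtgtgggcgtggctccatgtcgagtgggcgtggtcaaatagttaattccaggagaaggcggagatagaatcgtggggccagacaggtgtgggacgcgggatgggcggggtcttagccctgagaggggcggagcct

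Genes that work with these ligands were read from 6 lists of 70 genes, of which 62 were measured. In all, 9 of the 62 passed the rule, 6 higher in AC29 and 3 higher in AB1, against 10.9% of all genes, and the median difference was -0.02, against -0.00474 for all genes. None of the 12 measured receptors of the ligands passed (median -0.07), and 10 of them, among them Pdcd1, Ctla4, Cd28 and Cd226, were at or under the floor on all 6 arrays. Sirpa, the receptor of CD47, read 7.50 in AB1 and 7.16 in AC29 (adjusted p = 0.0241), and Rgmb, a co-receptor for bone morphogenetic proteins that also binds PD-L2, read 7.99 and 7.55 (adjusted p = 0.0143). These were the receptors above the floor, and neither reached a 2-fold difference. Tigit, Pvrig and Cd200r2 were not analysed here.

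Among the other B7 and butyrophilin relatives, 1 of 8 passed (median 0.09). Ildr2, an immunoglobulin-like relative with a reported inhibitory effect on T cells, read 4.99, 4.99 and 4.62 in AB1 and 10.97, 10.50 and 10.83 in AC29. It was at least 25.9-fold higher in AC29 (difference 5.90; limma, adjusted p = 4.03e-09), and all 3 of its probe sets passed, at 3.59 to 5.90. Icosl, the ligand of ICOS, read 5.61 in AB1, under the floor, and 6.54, 6.38 and 6.27 in AC29, at least 1.25-fold higher. Its difference of 0.79 on the log2 scale did not pass the rule, but with AB1 under the floor the fold has no upper limit here. Vsir, which encodes the checkpoint protein VISTA, read 6.62 and 6.83, and Btnl2, next in brightness, 6.05 and 6.07.

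In the nectin family list, 1 of 7 passed (median -0.07). Afdn, which encodes afadin, the protein that anchors nectins to actin, was 2.86-fold higher in AC29 (10.14 ± 0.15 against 8.62 ± 0.20, SD, n = 3; limma, adjusted p = 8.74e-06). Its other probe set, at or under the floor on all arrays, differed by 0.14, and on the mean of both Afdn did not pass (0.83). Nectin3 read 9.32 in AB1 and 9.33 in AC29, and Cadm3, a nectin-like adhesion protein, 6.77 and 7.55, a difference under the 2-fold minimum. Nectin1 differed by -0.16, and Nectin4 was under the floor in both lines. Of the 4 nectins measured, Nectin2 passed and the other 3 did not.

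Of 9 partners of CD47 and other signals to phagocytes, 3 were higher in AB1 and 1 in AC29 (median -0.28). Thbs1, a matrix protein that binds CD47, read 12.18, 12.24 and 12.24 in AB1 and 9.38, 9.41 and 9.66 in AC29, a 6.67-fold difference (limma, adjusted p = 3.57e-08). Its relative Thbs2 was at least 14.2-fold higher in AB1. Lrp1, a receptor for calreticulin on engulfing cells, was 3.04-fold higher in AB1 (AB1 10.20 ± 0.22, SD, n = 3; AC29 arrays 8.52, 8.47 and 8.81), while its other probe set gave -0.49 (adjusted p = 0.274). Cd24a, the mouse counterpart of a further signal against phagocytosis, read 4.06, 3.86 and 4.06 in AB1 and 9.96, 9.88 and 10.16 in AC29, at least 15.2-fold higher in AC29. Calr, the calreticulin that prompts engulfment, read 13.32 and 13.44, and B2m 12.95 and 12.67, without passing. Qpctl, the enzyme that modifies CD47 so that SIRPα binds it, read 7.42 in AB1 and 6.81 in AC29 (difference -0.62; limma, adjusted p = 0.00269).

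Of 17 measured regulators of PD-L1, 2 passed, both higher in AC29 (median 0.04). Irf1, the transcription factor through which interferon-gamma raises PD-L1, read 8.52, 8.53 and 8.54 in AB1 and 10.05, 10.21 and 10.41 in AC29, a 3.23-fold difference (limma, adjusted p = 1.46e-06). Stat3, a cytokine-activated transcription factor, was 3.32-fold higher by its brightest probe set (10.67 ± 0.22 against 8.93 ± 0.11, SD, n = 3). A second probe set above the floor gave 1.35, and the other 2 were under the floor on all arrays. On the mean of all 4 the Stat3 difference was 0.94 and did not pass. The interferon-gamma receptor chain Ifngr2 read 8.43 in AB1 and 9.10 in AC29, and the kinase Jak1 10.42 and 9.73, both under the 2-fold minimum. Cmtm6, which keeps PD-L1 on the cell surface, read 8.41 and 8.26, and the brightest genes that did not pass were Cops5, which removes ubiquitin from PD-L1, at 11.86 and 11.91, and Hif1a at 11.63 and 11.48.

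Among 9 other checkpoint ligands and enzymes, 1 passed (median -0.05). Lgals9, which encodes galectin-9, a ligand of TIM-3, read 10.04, 10.19 and 9.89 in AB1 and 11.67, 11.50 and 11.78 in AC29, a 3.05-fold difference (limma, adjusted p = 3.07e-06). Lgals3, the galectin bound by LAG-3, read 13.79 in AB1 and 13.02 in AC29, and Nt5e, the adenosine-producing enzyme CD73, 8.32 and 9.12, both under the 2-fold minimum. Tnfrsf14, Fgl1, Entpd1, Ido1 and Arg1 were at or under the floor on all arrays.

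**Figure D4:**
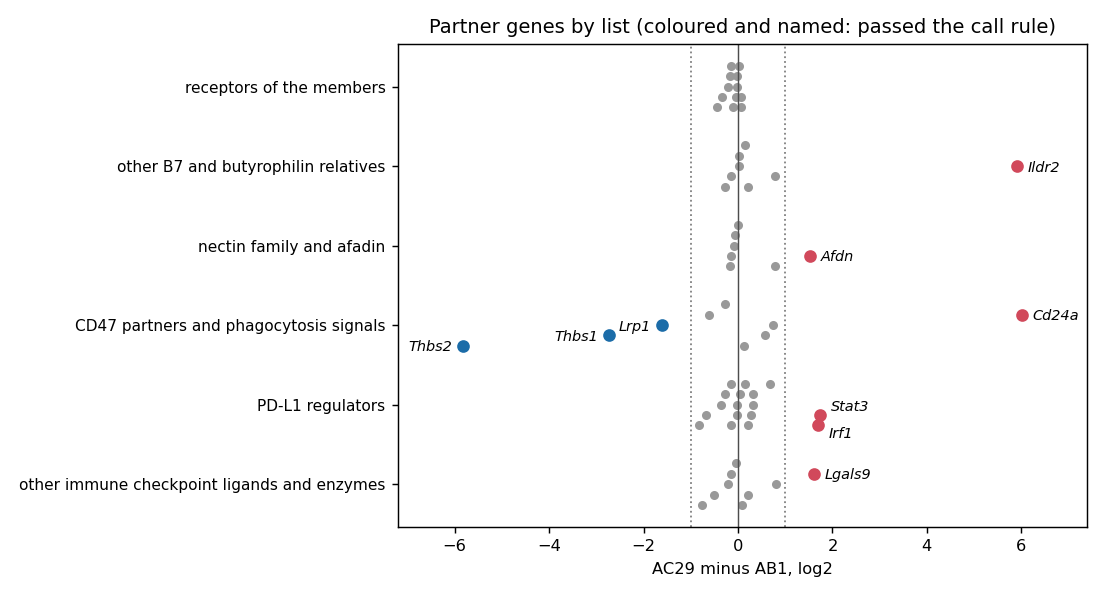
Difference AC29 minus AB1 on the log2 scale (horizontal axis) for the 62 measured partner genes in their 6 lists; coloured and named points passed the call rule and dotted lines mark a 2-fold difference. The 6 genes higher in AC29 are Ildr2, Afdn, Cd24a, Stat3, Irf1 and Lgals9, and the 3 higher in AB1 are Thbs1, Thbs2 and Lrp1.

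The genes most like Nectin2 were found by the root mean square difference over the 6 arrays, after each gene was centred on its own mean. Nearest were the septin and actin regulator Cdc42ep2 (0.0944), the membrane protein Tmem176a (0.101) and the complement protease C1ra (0.111), and 98 genes above the floor in at least 1 line lay within 0.25. C1ra read 7.01 ± 0.19 in AB1 and 9.55 ± 0.02 in AC29 (SD, n = 3). With 2 lines, this likeness reflects mainly the size of the difference between them. No likeness is given for Cd80, whose AC29 arrays were all under the floor.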

How the data were processed

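The series matrix table as deposited held log2 values for 45101 probe sets on 6 arrays; the software in the submitters' processing notes is GCOS, RMA and Partek 6.4, without what each was used for, and the log2 scale was taken from these notes and from the range of the values. RMA pulls dim values together, which can understate differences near the floor. Control probe sets (64) were left out. Gene symbols were those of GEO's platform annotation, with 34945 probe sets carrying 1 symbol, 932 several and 9160 none, and 34741 of the first matched RefSeq by Entrez identifier.

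AC29 was compared with AB1 at all probe sets outside the controls by lmFit and eBayes of limma 3.58.1 (R 4.3.3), a 2-sided moderated test with 8.92 total degrees of freedom. Benjamini-Hochberg adjustment ran over 18193 genes, or over all probe sets outside the controls where a further probe set is given. The call asked for an adjusted p below 0.05 together with a log2 difference of 1 or more in size. Where no array of a line exceeded the floor, the fold was taken against the floor and is a lower bound. The fit was tested on simulated data. Array values carry no depth; the number of arrays limits precision, and the median standard error was 0.0999.

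The ligands and lists were chosen with earlier results of these data known. Named were all 10 ligands, each partner gene that passed with the 2 brightest of its list that did not, and the 3 genes nearest to Nectin2; the single marker genes, Qpctl, Icosl, Nectin1, Nectin4, Ifngr2, Jak1, Cmtm6, the genes listed at or under the floor and the neighbours of Nectin2 were named after their values were seen. Quantile normalization, centring, other probe set rules, other moderation, array weights, a filter on the floor, other thresholds and leaving out each array were tried.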

Additional observations from a re-analysis of the deposited data

How the results depend on the processing

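Nectin2 and Cd80 kept their direction and passed the rule under all 14 alternatives to the normalization, the choice of probe sets, the moderation, the weights, the filter and the arrays used. None of the 14 moved the floor. Leaving out 1 array gave 2 to 3 ligands and 1990 to 2029 genes called; the third ligand was Pvr, without AB1 replicate 6. It also came in at -1.06 when any probe set of a ligand could pass, a count added after the data were seen. Changing the threshold moved the counts: 6 ligands and 7105 genes with no minimum difference, 5 ligands and 3990 genes at 1.5-fold, and 1237 genes with limma's treat, against 2 and 1991. Differences near 0 changed sign: Pdcd1lg2 ran from -0.12 to 0.10 when 1 array was left out, above 0 without AB1 replicate 4 (0.08) and AC29 replicate 13. Cd86 gave 0.0076 on the mean of its probe sets, 0.0060 with array weights, -0.12 to 0.010 when 1 array was left out (above 0 without AB1 replicate 5) and 0.060 by its other probe set, and the dimmest probe set of Cd80 gave 0.23. The cause was not tested. On the mean of probe sets the nectin list had 0 and the PD-L1 regulators 1 gene called. With the floor at the 90th percentile Cd274 also exceeded it, and Cd80 was at least 2.90-fold higher in AB1. At the 99th percentile no bound on the Cd80 fold remained, and Nectin2 was at least 2.86-fold higher in AC29. Folds under other floors were added after the data were seen. No paired analysis was possible because the lines share no replicate numbers. Values under the floor carry no order between genes.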
